A study of Mus musculus with 9 samples.

Results

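The genes described here are 7 subunits of the GABA-A receptor, Gabra2, Gabra3, Gabra4, Gabra5, Gabrb1, Gabrb2 and Gabrd, followed through the mouse hippocampus in 3 groups of 3 RNA-seq libraries. They were picked by gene symbol, 1 row each of the 33175 genes in the deposited annotated table, and they make up 7 of the 19 GABA-A receptor subunit genes in that table. All mice were female and 9 months old. The 3xTg LP-10d group carried the APPSwe, tauP301L and PS1 alleles of the 3xTg Alzheimer's disease line and received the compound LP-10d by mouth at 10 mg/kg, 4 times a week for 1 month. The 3xTg vehicle group carried the same alleles without the compound, and the WT vehicle group was C57BL/6J. The labels write the PS1 change differently in each of the 6 3xTg libraries, M146V in 3xTg vehicle replicate 1 and one position further in each next library up to M151V in 3xTg LP-10d replicate 3, and the libraries are treated here as 1 line. In this line the APP and tau transgenes are driven by the Thy1 promoter, which is active in neurons, and the line was made on a mixed strain background, so transgenes and strain background cannot be told apart in a comparison with C57BL/6J. Whether the replicates of a group were separate animals is not stated in the labels, and p-values therefore reflect the spread between libraries, which may be technical.

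GABA-A receptors are chloride channels opened by GABA and built from several subunits, most often alpha and beta with gamma or delta. The alpha subunit sets much of where the receptor sits and how it responds to benzodiazepines: receptors with alpha 2 or alpha 3 and a gamma subunit gather at synapses, while those with alpha 5, or with alpha 4 and delta, lie largely outside synapses and carry tonic inhibition. In the hippocampus alpha 5 is known from pyramidal cells, and alpha 4 with delta from dentate gyrus granule cells. Gabra2 is also known as a gene whose brain RNA differs between inbred mouse strains, with C57BL/6J low among them.

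In mm10, 3 of the 7 genes lie in 1 cluster on chromosome 5. Gabra2 (ENSMUSG00000000560) spans chr5:70957597-71095849 on the minus strand, Gabra4 (ENSMUSG00000029211) chr5:71569749-71658308 on the minus strand, and Gabrb1 (ENSMUSG00000029212) chr5:71658113-72149037 on the plus strand. Gabra4 and Gabrb1 start head to head and share 196 bases, of which 46 are exonic in both, so reads from those bases cannot be assigned without a strand setting, which is not given in the sources used here. Gabra3 (ENSMUSG00000031343) lies at chrX:72432681-72656848 on the minus strand, Gabra5 (ENSMUSG00000055078) at chr7:57407672-57510059 on the minus strand, Gabrb2 (ENSMUSG00000007653) at chr11:42419757-42629028 on the plus strand and Gabrd (ENSMUSG00000029054) at chr4:155384980-155398112 on the minus strand. Gabra5 overlaps the opposite-strand gene Gm9962 by 148 exonic bases.

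Promoter windows of 300 bases, 250 before and 50 after the annotated start, were available from RefSeq (GRCm38.p6) for 6 of the 7 genes. The windows of the 3 chromosome 5 genes, for Gabrb1 only the first, are shown because these genes are neighbours with different levels. The first window of Gabrb2 is shown because that gene had the lowest unadjusted p of the 7 between 3xTg vehicle and WT vehicle. Each is written 5′ to 3′ on the gene's own strand, and capitals mark matches on either strand to the GC box GGGCGG, the TATA box TATAAA or the Egr site GCGNGGGCG. They lie at chr5:71095800-71096099 on the minus strand (Gabra2), chr5:71658259-71658558 on the minus strand (Gabra4), chr5:71657671-71657970 on the plus strand (Gabrb1) and chr11:42420190-42420489 on the plus strand (Gabrb2).
Gabra2: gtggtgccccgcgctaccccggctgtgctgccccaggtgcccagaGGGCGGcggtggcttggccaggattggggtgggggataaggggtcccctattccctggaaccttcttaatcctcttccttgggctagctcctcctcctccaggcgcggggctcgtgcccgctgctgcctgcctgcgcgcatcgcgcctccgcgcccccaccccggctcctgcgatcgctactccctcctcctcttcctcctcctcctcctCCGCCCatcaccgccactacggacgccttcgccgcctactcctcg
Gabra4: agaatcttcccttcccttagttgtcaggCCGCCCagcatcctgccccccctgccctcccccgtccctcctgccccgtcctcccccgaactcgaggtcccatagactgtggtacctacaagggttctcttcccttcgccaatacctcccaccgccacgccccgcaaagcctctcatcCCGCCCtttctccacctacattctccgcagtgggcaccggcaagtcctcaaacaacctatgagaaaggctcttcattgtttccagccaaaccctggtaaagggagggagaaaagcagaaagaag
Gabrb1: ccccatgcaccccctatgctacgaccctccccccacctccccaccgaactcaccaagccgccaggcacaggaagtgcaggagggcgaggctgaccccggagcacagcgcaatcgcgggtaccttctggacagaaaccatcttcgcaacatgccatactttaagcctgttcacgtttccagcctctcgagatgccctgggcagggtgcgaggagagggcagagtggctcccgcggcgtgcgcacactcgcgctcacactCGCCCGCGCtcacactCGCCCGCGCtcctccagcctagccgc
Gabrb2: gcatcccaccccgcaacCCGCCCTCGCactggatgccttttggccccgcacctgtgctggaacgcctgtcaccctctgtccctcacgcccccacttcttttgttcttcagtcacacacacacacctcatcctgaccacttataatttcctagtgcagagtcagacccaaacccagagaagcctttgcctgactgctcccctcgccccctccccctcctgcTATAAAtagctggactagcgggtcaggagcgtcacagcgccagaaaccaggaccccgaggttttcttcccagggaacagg
The Gabra2 and Gabra4 windows each held 2 GC boxes, the first Gabrb1 window held 2 Egr sites, and the first Gabrb2 window held 1 GC box that overlapped 1 Egr site, and 1 TATA box. Over all 32851 RefSeq windows, 35.7% held the GC box, 13.6% the TATA box and 5.55% the Egr site. The cAMP response element TGACGTCA, held by 1.79% of all windows, had no match in these 4 windows. Their GC content was 70% for Gabra2, 58.7% for Gabra4, 66% for Gabrb1 and 59% for Gabrb2, against a median of 52.7% over all windows. A match describes the letters of the window only, and no binding was measured here.

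The libraries held 16582086 to 19170969 counts, of which the 7 genes took 0.0445% to 0.0580%. The lowest count of any of the 7 in a library was 529, of Gabrb2 in WT vehicle replicate 1, so counting error was small beside the spread between replicates. Markers of neighbouring brain regions differed between libraries. The summed level of 8 striatum markers was 1156 CPM (counts scaled by library size with TMM, in CPM) in 3xTg vehicle replicate 2 and 97.1 to 191 CPM in the other libraries. Likewise 6 thalamus markers summed to 309 CPM in 3xTg vehicle replicate 2 and were highest in WT vehicle replicate 3 at 388 CPM, against 90.1 to 142 CPM elsewhere. Choroid plexus markers, 7 in all, ran between 44.3 CPM in 3xTg LP-10d replicate 3 and 4356 CPM in WT vehicle replicate 2. The 7 neocortex markers found, of 8 listed, summed to 269 to 343 CPM in 3xTg LP-10d, 301.4 to 423 CPM in 3xTg vehicle, and between 210.0 and 300.9 CPM in WT vehicle. All markers found of these 4 lists had counts above 0 in every library. The mouse gene App averaged 1676 CPM in 3xTg LP-10d, 1653 CPM in 3xTg vehicle and 1905 CPM in WT vehicle libraries. It does not check the transgene, which is human. In these bulk samples, fewer cells of a type and less RNA per cell cannot be told apart.

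Per merged exon length of the gene, Gabra5 was the most abundant and Gabra2 the least abundant of the 7. These lengths ran between 2875 bases for Gabrd and 13838 bases for Gabrb1, so the order depends on the annotated exons. In CPM, which does not divide by length, Gabrb1 had the highest mean over the 9 libraries at 119 and Gabrd the lowest at 45.8. On the authors' FPKM scale, as mean ± SD over the 9 libraries, Gabra5 stood at 39.1 ± 8.64. Gabrd followed at 15.9 ± 5.50, Gabra3 at 15.02 ± 2.68, Gabra4 at 11.5 ± 1.19, Gabrb2 at 9.23 ± 2.39, Gabrb1 at 8.58 ± 1.24 and Gabra2 at 6.54 ± 1.13 FPKM. Not all neighbours in this order were separated: Gabrd was above Gabra3 in 4 of 9 libraries and Gabrb2 above Gabrb1 in 6 of 9. Gabra5 was above Gabrd in 8 of 9, Gabra3 above Gabra4 in 9 of 9, Gabra4 above Gabrb2 in 8 of 9 and Gabrb1 above Gabra2 in 8 of 9. Outside the 7, the gamma subunits Gabrg1 and Gabrg3 were at 1.58 and 1.46 FPKM.

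**Figure D1:**
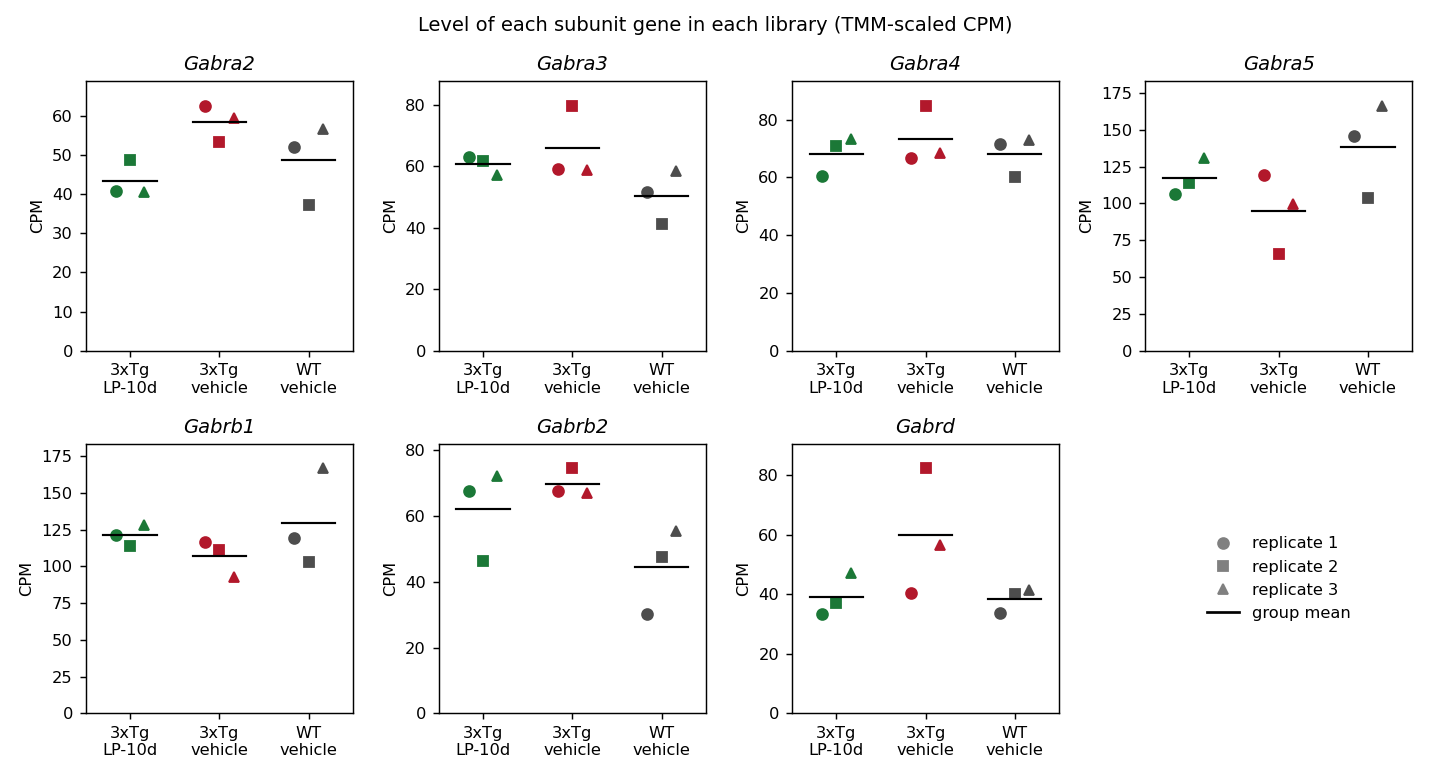
Level of each of the 7 subunit genes in each library, as TMM-scaled CPM (vertical axis, from 0) for 3xTg LP-10d, 3xTg vehicle and WT vehicle; symbols mark the replicate number and bars the group mean of 3 libraries. Gabra2 was lower in every 3xTg LP-10d library than in every 3xTg vehicle library, and 3xTg vehicle replicate 2 holds the highest Gabrd and the lowest Gabra5.

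Between 3xTg vehicle and WT vehicle, Gabrb2, Gabrd, Gabra3 and Gabra5 had the largest log2 fold changes in size and Gabra4 the smallest. Gabrb2 averaged 69.6 ± 4.20 CPM in 3xTg vehicle and 44.4 ± 12.9 CPM in WT vehicle, and Gabrd 59.8 ± 21.1 CPM in 3xTg vehicle and 38.5 ± 4.09 CPM in WT vehicle (SD, n = 3 each). Gabra3 averaged 65.9 ± 12.01 CPM in 3xTg vehicle and 50.4 ± 8.69 CPM in WT vehicle, while Gabra5 averaged 95.1 ± 27.1 CPM in 3xTg vehicle and 138 ± 32.0 CPM in WT vehicle (SD, n = 3 each). None of the 7 passed edgeR's quasi-likelihood test at an adjusted p of 0.05 over all 17396 genes tested, where 0.00575% of genes passed. DESeq2 and limma-voom, run as alternatives, also called 0 of the 7. At an unadjusted p under 0.05, edgeR had 4 of 7, with 14.1% of all genes tested at that level, and DESeq2 and limma-voom had 4 each. This count rested on single libraries: it was 1 of 7 without 3xTg vehicle replicate 2, 2 of 7 without WT vehicle replicate 1 and 2 of 7 in a fit of only these groups, and it ran between 1 and 5 over the 22 alternatives. The libraries of the groups did not overlap for 2 of 7, Gabrb2 and Gabra3, both higher in 3xTg vehicle, against 17.4% of all genes. The median log2 fold change of the 7 was 0.27, with 5 of 7 above 0, against 0.00 and 50.2% over all genes tested.

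Between 3xTg LP-10d and 3xTg vehicle, Gabra2 and Gabrd were the 2 genes with an unadjusted p under 0.05, both lower in 3xTg LP-10d, where 2.9% of all genes reached that level. Without 3xTg LP-10d replicate 1 the count was 0 of 7, and it was 1 of 7 without 3xTg LP-10d replicate 2, without 3xTg LP-10d replicate 3 or without 3xTg vehicle replicate 2. Gabra2 averaged 43.3 ± 4.65 CPM in 3xTg LP-10d and 58.5 ± 4.68 CPM in 3xTg vehicle, while Gabrd averaged 39.2 ± 7.06 CPM in 3xTg LP-10d libraries, against 59.8 ± 21.1 CPM in 3xTg vehicle libraries (SD, n = 3 each). The adjusted p was 1.00 for each of the 7 with edgeR, which called 0% of all genes in this comparison, and DESeq2 and limma-voom called 0 of the 7. Only Gabra2 had groups that did not overlap, 1 of 7 against 11.6% of all genes. The median log2 fold change of the 7 was -0.12, against 0.00 over all genes tested. This comparison and the one above share the 3xTg vehicle libraries, so a value that is high or low in those libraries enters both with opposite sign.

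Set against WT vehicle, 3xTg LP-10d libraries gave 0 of 7 genes with groups that did not overlap, against 14.4% of all genes, and 1 of 7 with an unadjusted p under 0.05, against 8.75% (between 0 and 2 of 7 over the 22 alternatives). That gene was Gabrb2, at 62.0 ± 13.8 CPM in 3xTg LP-10d and 44.4 ± 12.9 CPM in WT vehicle (SD, n = 3 each), with 0.48 ± 0.21 (SE) as its log2 fold change and an adjusted p = 0.569 from edgeR. The edgeR test called 0 of the 7 and 0% of all genes, and DESeq2 and limma-voom called 0 of the 7. With both 3xTg groups pooled against WT vehicle, 0 of 7 were called by edgeR, where 0% of all genes passed, and 0 by DESeq2 or limma-voom. At an unadjusted p under 0.05, edgeR had 2 of 7, Gabrb2 and Gabra3 (between 1 and 4 of 7 over the 21 alternatives), against 14.8% of all genes, and 0 of 7 had groups that did not overlap, against 6.93%.

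**Figure D2:**
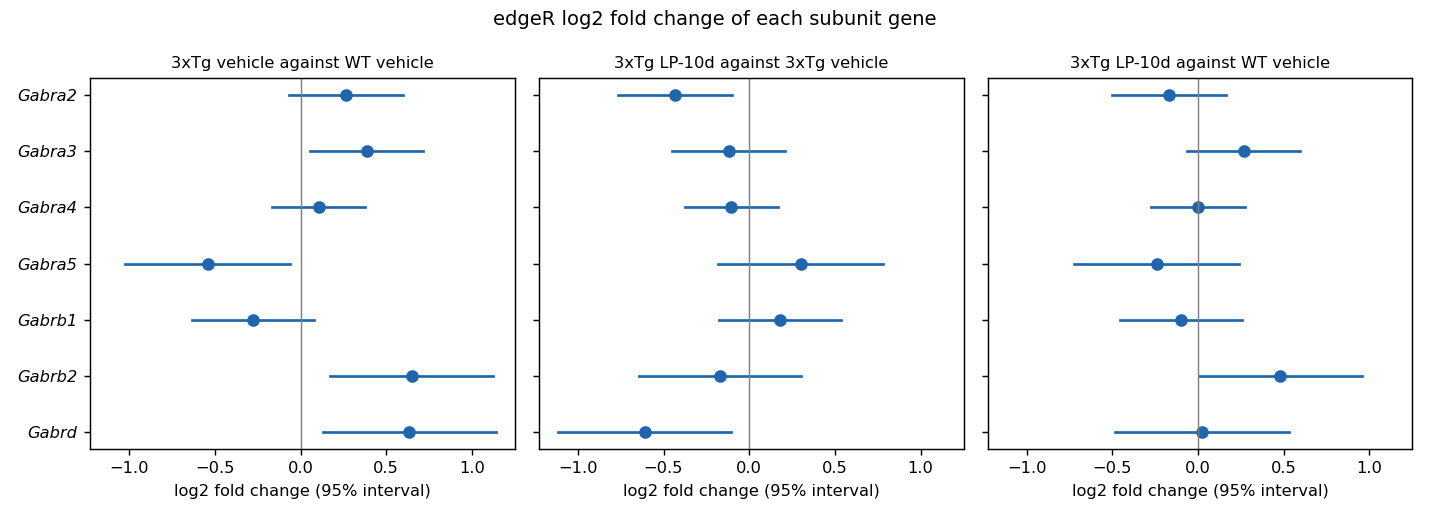
edgeR log2 fold change of each subunit gene (points) with its 95% interval (lines), in 1 panel for each comparison named above it; the intervals are not adjusted for the number of genes tested. Between 3xTg vehicle and WT vehicle the intervals of Gabra3, Gabra5, Gabrb2 and Gabrd leave out 0, and between 3xTg LP-10d and 3xTg vehicle those of Gabra2 and Gabrd do. That of Gabrb2, at 0.0045 to 0.96, does so between 3xTg LP-10d and WT vehicle.

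Gabra2 encodes the alpha 2 subunit, known at synapses on the axon initial segment of pyramidal cells and as a mediator of the anxiety-reducing action of benzodiazepines. It was at 40.7, 48.6 and 40.5 CPM in 3xTg LP-10d replicates 1 to 3, at 62.6, 53.4 and 59.5 CPM in 3xTg vehicle, and at 52.1, 37.2 and 56.7 CPM in WT vehicle. The 3xTg LP-10d libraries all lay below the 3xTg vehicle libraries. WT vehicle replicate 2 lay below both ranges, replicate 1 between them and replicate 3 within the 3xTg vehicle range. The log2 fold change of 3xTg LP-10d over 3xTg vehicle was -0.44 ± 0.15 (SE; 95% interval -0.77 to -0.10, unadjusted p = 0.0153 by edgeR). That of 3xTg vehicle over WT vehicle was 0.27 (95% interval -0.07 to 0.60) with edgeR adjusted p = 0.442, and 0.10 without WT vehicle replicate 2. For the strain-variable gene, both 3xTg groups together gave 0.05 on the log2 scale over C57BL/6J, with a 95% interval of -0.24 to 0.34 and edgeR adjusted p = 0.876. The mean of 3xTg LP-10d lay below and that of 3xTg vehicle above the WT vehicle mean of 48.7 CPM.

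Gabra3, on the X chromosome, encodes the alpha 3 subunit, a synaptic alpha subunit known from cortex and from monoamine neurons. Its levels were 63.0, 61.8 and 57.1 CPM in 3xTg LP-10d, 59.1, 79.7 and 58.8 CPM in 3xTg vehicle, and 51.5, 41.2 and 58.5 CPM in WT vehicle. Every 3xTg vehicle library was above every WT vehicle library, by a narrow margin between 58.8 CPM in 3xTg vehicle replicate 3 and 58.5 CPM in WT vehicle replicate 3. The log2 fold change of 3xTg vehicle over WT vehicle was 0.39 ± 0.15 (SE; 95% interval 0.06 to 0.72), with edgeR adjusted p = 0.305. Without 3xTg vehicle replicate 2 it was 0.23. For LP-10d over vehicle in 3xTg mice it was -0.12, with an interval of -0.45 to 0.21.

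Gabra5 encodes the alpha 5 subunit, whose receptors carry tonic inhibition in hippocampal pyramidal cells and are known for their part in memory. It was at 107, 114 and 131 CPM in 3xTg LP-10d, at 119.5, 66.0 and 99.8 CPM in 3xTg vehicle, and at 145, 104 and 166 CPM in WT vehicle. The ranges of 3xTg vehicle and WT vehicle overlapped, and the lowest library of all was 3xTg vehicle replicate 2. The log2 fold change of 3xTg vehicle over WT vehicle was -0.54 ± 0.22 (SE; 95% interval -1.02 to -0.06), with edgeR adjusted p = 0.314. It was -0.34 without 3xTg vehicle replicate 2, and -0.19 without that library and WT vehicle replicate 3, the libraries with the highest striatum and thalamus marker sums. The 6 CA1 pyramidal cell markers summed to 594 CPM in 3xTg vehicle replicate 2, the lowest of all libraries, and to 721 to 931 CPM in the others. They summed to 915 CPM in both 3xTg vehicle replicate 1 and 3xTg vehicle replicate 3, and to 811 CPM in WT vehicle replicate 3, which had the highest Gabra5. Their part in the Gabra5 difference was not tested. Of 3xTg LP-10d over 3xTg vehicle, the log2 fold change of Gabra5 was 0.30, with an interval of -0.18 to 0.78, and 0.09 without 3xTg vehicle replicate 2.

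Gabra4 encodes the alpha 4 subunit, the usual partner of delta in dentate granule cells, thalamus and striatum. It was the steadiest of the 7, at 60.5, 71.0 and 73.4 CPM in 3xTg LP-10d, 66.8, 84.9 and 68.6 CPM in 3xTg vehicle, and 71.6, 60.003 and 73.1 CPM in WT vehicle. All 3 groups overlapped, and the highest library was again 3xTg vehicle replicate 2. The 95% intervals of the log2 fold change were -0.17 to 0.38 for 3xTg vehicle over WT vehicle, -0.38 to 0.17 for 3xTg LP-10d over 3xTg vehicle and -0.27 to 0.27 for 3xTg LP-10d over WT vehicle.

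Gabrd encodes the delta subunit, which takes the place of gamma in extrasynaptic receptors and gives them high sensitivity to neurosteroids. Its levels were 33.4, 37.1 and 47.0 CPM in 3xTg LP-10d, 40.4, 82.4 and 56.7 CPM in 3xTg vehicle, and 33.9, 40.1 and 41.5 CPM in WT vehicle. The groups overlapped in each comparison, and 3xTg vehicle replicate 2 stood well above the other libraries. Over WT vehicle, its log2 fold change in 3xTg vehicle was 0.63 ± 0.23 (SE; 95% interval 0.13 to 1.14, edgeR adjusted p = 0.284), and 0.33 without 3xTg vehicle replicate 2. For 3xTg LP-10d over 3xTg vehicle it was -0.61 ± 0.23 (SE; 95% interval -1.11 to -0.10, unadjusted p = 0.0226 by edgeR), and -0.31 without that library. Delta is known from striatum, thalamus and dentate granule cells. The 8 striatum markers summed to 102 to 108 CPM in 3xTg LP-10d, from 110.0 to 1156 CPM in 3xTg vehicle, and WT vehicle ran between 97.1 and 191 CPM. The 6 thalamus markers summed to 90.1 to 125 CPM in 3xTg LP-10d, from 100.4 to 309 CPM in 3xTg vehicle, and WT vehicle ran between 94.5 and 388 CPM. Drd2, the dopamine receptor of indirect-pathway striatal neurons, reached 79.7 CPM in 3xTg vehicle replicate 2, against 2.58 to 9.60 CPM in the other libraries. The part of such tissue in the Gabrd difference was not tested. WT vehicle replicate 3, with the highest thalamus sum, had 41.5 CPM of Gabrd. The 8 dentate gyrus granule cell markers summed to 341 to 428 CPM in 3xTg LP-10d and 292 to 434 CPM in 3xTg vehicle. Both sums lay below the 451 to 607 CPM of WT vehicle, and 3xTg vehicle replicate 2 was the lowest library. Taken singly, 2 of these 8 markers had groups that did not overlap between 3xTg vehicle and WT vehicle, against 17.4% of all genes. In that comparison 1 of the 8 had a log2 fold change above 0. Between 3xTg LP-10d and WT vehicle, 4 of the 8 did not overlap, against 14.4% of all genes.

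**Figure D3:**
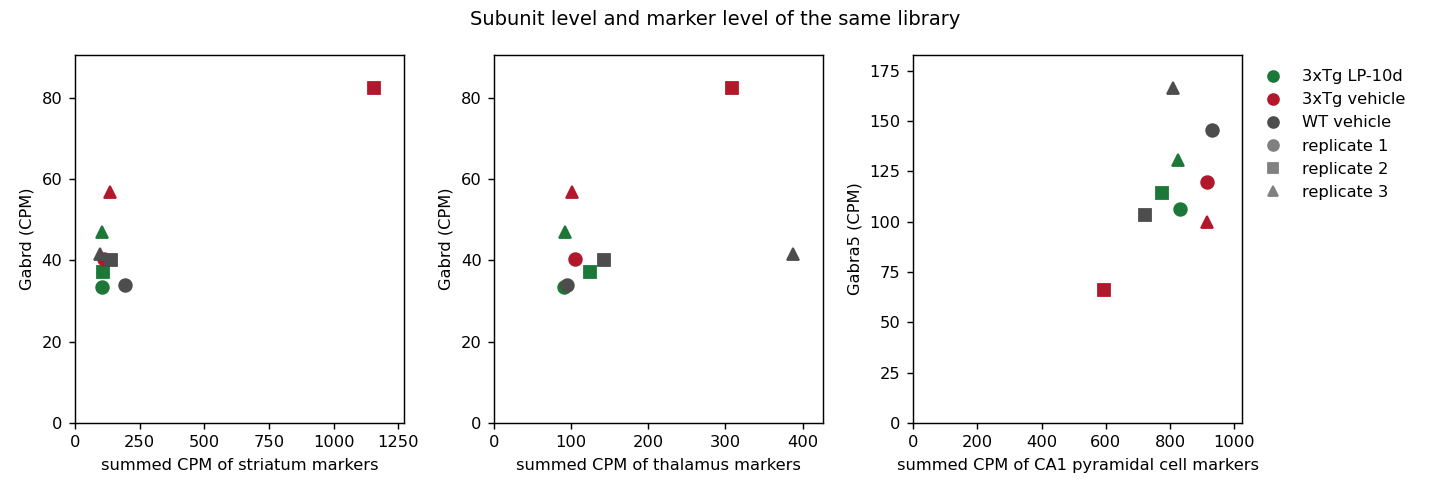
Gabrd in CPM against the summed CPM of the striatum markers and of the thalamus markers, and Gabra5 in CPM against that of the CA1 pyramidal cell markers, 1 point per library, coloured by group with symbols for the replicate number. In 3xTg vehicle replicate 2 the highest Gabrd (82.4 CPM) stands with the highest striatum sum (1156 CPM), and the lowest Gabra5 (66.0 CPM) with the lowest CA1 sum (594 CPM). The highest Gabra5 (166 CPM, WT vehicle replicate 3) stands with a CA1 sum of 811 CPM, below the 931 CPM of WT vehicle replicate 1.

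The beta subunits form the GABA binding site together with alpha and are needed to bring the receptor to the cell surface. Gabrb2, a beta subunit of many synaptic receptors, was at 67.5, 46.2 and 72.1 CPM in 3xTg LP-10d, at 67.6, 74.5 and 66.9 CPM in 3xTg vehicle, and at 30.2, 47.5 and 55.4 CPM in WT vehicle. Every 3xTg vehicle library lay above every WT vehicle library, and among the 3xTg LP-10d libraries replicate 2 lay within the WT vehicle range. The neocortex marker sum also had every 3xTg vehicle library above every WT vehicle library, by a narrow margin of 301.4 against 300.9 CPM. It was lowest within 3xTg LP-10d in replicate 2, at 269 CPM. Unlike Gabrb2, it was highest in 3xTg vehicle replicate 3, and 3xTg LP-10d replicate 1, at 290 CPM, also lay within the WT vehicle range. The part of neocortex tissue in the Gabrb2 difference was not tested. The log2 fold change of 3xTg vehicle over WT vehicle was 0.65 ± 0.21 (SE; 95% interval 0.17 to 1.13), with edgeR adjusted p = 0.252. Over the alternatives the adjusted p of this difference went no lower than 0.1001, with DESeq2. The fold change was 0.43 without WT vehicle replicate 1, the lowest library, and 0.83 without WT vehicle replicate 3. It was -0.17 for 3xTg LP-10d over 3xTg vehicle, with an interval of -0.64 to 0.30.

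Gabrb1, which shares its start region with Gabra4, was at 121, 114 and 128 CPM in 3xTg LP-10d, at 117, 111 and 93.1 CPM in 3xTg vehicle, and at 119, 103 and 167 CPM in WT vehicle. The groups overlapped in every comparison, and WT vehicle replicate 3 was the highest library. The log2 fold change of 3xTg vehicle over WT vehicle was -0.28 (95% interval -0.64 to 0.08), with edgeR adjusted p = 0.451, and -0.06 without WT vehicle replicate 3. That library also had the highest summed level of 6 pan-neuronal markers, 6312 CPM against 4159 to 5215 CPM in the other libraries, and the part of this in the Gabrb1 difference was not tested. The fold change of 3xTg LP-10d over 3xTg vehicle was 0.18 on the log2 scale, with an interval of -0.18 to 0.54.

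**Figure D4:**
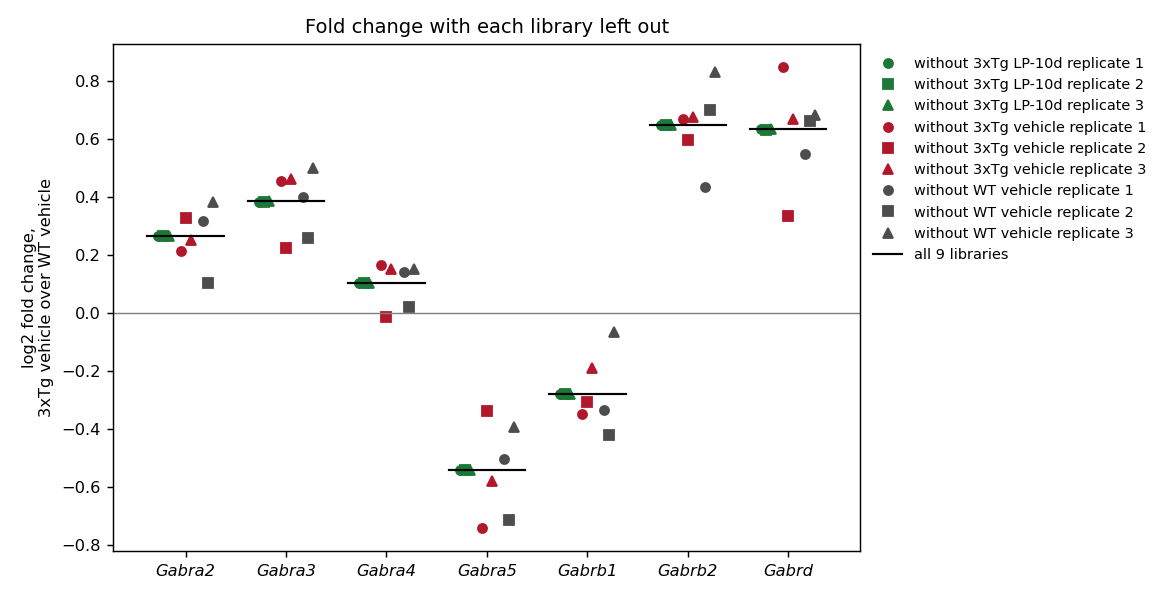
Log2 fold change of 3xTg vehicle over WT vehicle for each subunit gene with each of the 9 libraries left out in turn (points, coloured by the group of the left-out library) and with all 9 (bars). Gabrd is at 0.33 without 3xTg vehicle replicate 2 and Gabrb1 at -0.06 without WT vehicle replicate 3, while Gabrb2 stays between 0.43 and 0.83.

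Among themselves the 7 genes did not vary alike. The SD of log2 CPM over the 9 libraries was 0.423 for Gabrb2, 0.412 for Gabrd, 0.379 for Gabra5, 0.267 for Gabra2, 0.251 for Gabra3, 0.232 for Gabrb1 and 0.152 for Gabra4, against a median of 0.160 over the 11938 tested genes with a mean of at least 5 CPM. Within groups the SD of the same genes ran between 0.166 for Gabra4 and 0.342 for Gabrd, against a median of 0.151 over those tested genes. By the root mean square difference of their centred log2 CPM over the 9 libraries, Gabra3 and Gabra4 were the closest pair at 0.177. Gabra5 and Gabrd were the farthest at 0.69, with opposite extremes in 3xTg vehicle replicate 2. The 2 overlapping genes Gabra4 and Gabrb1 differed by 0.235.

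As a share of the summed FPKM of the 6 alpha genes, Gabra2 took 6.07%, 7.04% and 5.22% in 3xTg LP-10d, 8.48%, 8.34% and 8.42% in 3xTg vehicle, and 6.81%, 6.19% and 6.37% in WT vehicle. In this measure 3xTg vehicle stood apart from both other groups, and its 3 libraries had a mean of 8.41% with an SD of 0.0737 percentage points. This small SD depended on the class used. Of the summed FPKM of all 19 subunit genes, Gabra2 took 4.18% in 3xTg vehicle, with an SD of 0.304 percentage points. Gabra5 made up 40.8%, 42.4% and 43.3% of the alpha sum in 3xTg LP-10d, 41.6%, 26.5% and 36.3% in 3xTg vehicle, and 48.8%, 44.2% and 48.1% in WT vehicle. Each 3xTg vehicle library was below each WT vehicle library. Gabra3 took 16.7 ± 2.08% in 3xTg LP-10d, 18.7 ± 4.83% in 3xTg vehicle and 13.1 ± 0.274% in WT vehicle (SD, n = 3 each). Of the summed FPKM of the 3 beta genes, Gabrb2 took 19.7%, 14.1% and 19.1% in 3xTg LP-10d, 19.1%, 22.7% and 19.7% in 3xTg vehicle, and 8.69%, 15.5% and 12.2% in WT vehicle. The shares of Gabra2, Gabra3, Gabra5 and Gabrb2, 4 of 6, did not overlap between 3xTg vehicle and WT vehicle. Those of Gabra2 and Gabrb1, 2 of 6, did not between 3xTg LP-10d and 3xTg vehicle. Each of these gave a two-sided exact permutation p = 0.1, the smallest that 3 libraries against 3 allow, and 0.2 after Benjamini-Hochberg adjustment over the 12 share comparisons made. Shares within a class sum to a fixed total, so they are not independent of each other, and a fall in Gabra5, the largest alpha share, raises the other alpha shares. No such share was computed over all genes to set beside these counts. In CPM, Gabra2 and Gabra5 overlapped between 3xTg vehicle and WT vehicle, and Gabrb1 between 3xTg LP-10d and 3xTg vehicle.

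**Figure D5:**
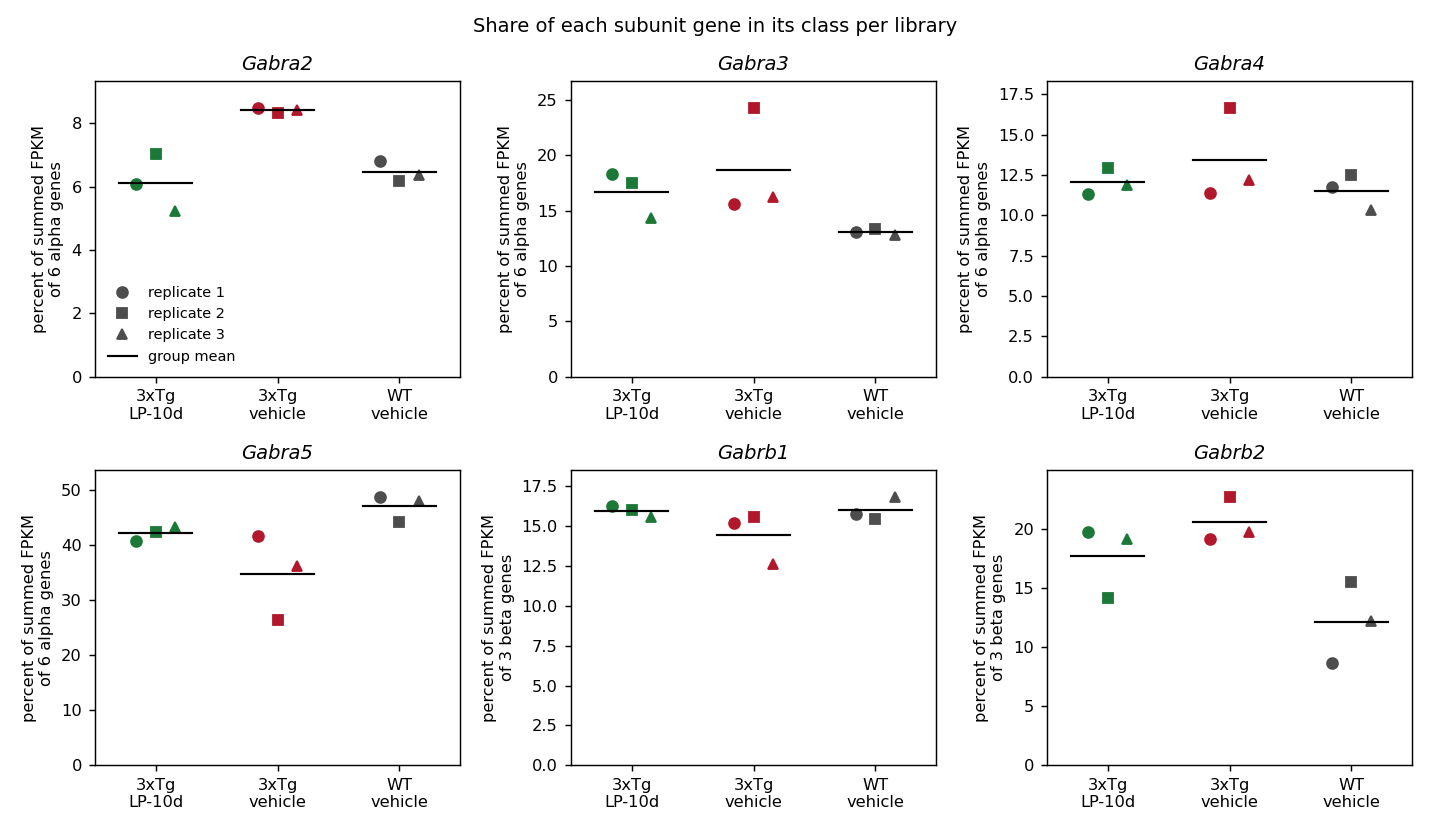
Share of Gabra2, Gabra3, Gabra4 and Gabra5 in the summed FPKM of the 6 alpha genes, and of Gabrb1 and Gabrb2 in that of the 3 beta genes, in percent (vertical axes, from 0), for 3xTg LP-10d, 3xTg vehicle and WT vehicle; symbols mark the replicate number and bars the group mean of 3 libraries. The Gabra2 share lies between 8.34% and 8.48% in 3xTg vehicle, above all libraries of the other groups, and the lowest Gabra5 share, 26.5%, is that of 3xTg vehicle replicate 2.

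Of the 12 other GABA-A receptor subunits, 8 were tested, and edgeR called 0 in any comparison, against at most 0.00575% of all genes. Between 3xTg vehicle and WT vehicle, where 14.1% of all genes tested had an unadjusted p under 0.05, 0 of these 8 did. Their median log2 fold change there was 0.00, with 4 above and 4 below 0. The smallest p was that of Gabre, the epsilon subunit, which averaged 0.123 FPKM over the 9 libraries and had a log2 fold change of -1.35 with an unadjusted p = 0.0531 by edgeR. Gabra6, Gabrp, Gabrr1 and Gabrr3 were too low to be tested.

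Among 22 genes of receptor assembly, trafficking and scaffold, 0 were called by edgeR between 3xTg vehicle and WT vehicle, and 7 had a log2 fold change above and 15 below 0. The median was -0.12, and 3 of 22 had an unadjusted p under 0.05, a share near the 14.1% of all genes tested. The smallest was that of Mdga1, which binds neuroligin 2 and limits inhibitory synapses. Mdga1 averaged 110 ± 12.8 CPM in 3xTg LP-10d, 94.8 ± 11.7 CPM in 3xTg vehicle and 149 ± 20.7 CPM in WT vehicle (SD, n = 3 each), and its 3xTg vehicle libraries all lay below those of WT vehicle, with a log2 fold change of -0.65 and edgeR adjusted p = 0.104. Trak2, a motor adaptor known to bind beta 2, had a log2 fold change of -0.29 (edgeR adjusted p = 0.200), and Plcl1, which binds the receptor-associated protein GABARAP, also -0.29 (edgeR adjusted p = 0.259). In 3xTg LP-10d against 3xTg vehicle, 0 of these 22 had an unadjusted p under 0.05, against 2.9% of all genes. The median log2 fold change of the 22 was 0.05 there.

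Of 10 genes of GABA synthesis, transport and breakdown, 0 were called by edgeR between 3xTg vehicle and WT vehicle, with 6 above and 4 below 0. An unadjusted p under 0.05 was reached by 1 of the 10, a share no higher than the 14.1% of all genes. This was Gad1, which makes GABA, at 296 ± 20.8 CPM in 3xTg LP-10d, 322 ± 36.5 CPM in 3xTg vehicle and 263 ± 22.6 CPM in WT vehicle (SD, n = 3 each). Its log2 fold change of 3xTg vehicle over WT vehicle was 0.29, with edgeR adjusted p = 0.279 and groups that did not overlap. The summed level of 11 interneuron markers, Gad1 among them, was 798 to 946 CPM in 3xTg LP-10d, 852 to 1058 CPM in 3xTg vehicle, and WT vehicle ran between 782 and 813 CPM. Among 9 genes of the neuronal chloride gradient, which sets the direction of the receptor's current, 0 were called, where 0.00575% of all genes were, and 2 had an unadjusted p under 0.05, against 14.1% of all genes. Slc12a5, the chloride exporter KCC2, averaged 806 ± 31.6 CPM in 3xTg LP-10d, 917 ± 30.3 CPM in 3xTg vehicle and 757 ± 76.2 CPM in WT vehicle (SD, n = 3 each), a log2 fold change of 0.28 for 3xTg vehicle over WT vehicle with edgeR adjusted p = 0.252. The kinase Wnk3 also had 0.28 (edgeR adjusted p = 0.318). Of 6 genes of the GABA-B receptor, the G protein-coupled GABA receptor, 0 were called and 1 had an unadjusted p under 0.05 in this comparison, against the same 14.1%. Its auxiliary subunit Kctd12 averaged 131 ± 6.64 CPM in 3xTg LP-10d, 117 ± 10.8 CPM in 3xTg vehicle and 146 ± 15.1 CPM in WT vehicle (SD, n = 3 each), a log2 fold change of -0.32 for 3xTg vehicle over WT vehicle with edgeR adjusted p = 0.234. Kctd16, another such subunit, was lower in every 3xTg LP-10d than in every 3xTg vehicle library, at means of 5.20 CPM in 3xTg LP-10d and 7.28 CPM in 3xTg vehicle, with an unadjusted p = 0.0133 and an adjusted p = 1.00 by edgeR.

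Around Gabra2, 13 tested genes start within 2 Mb of its start, the subunits Gabrg1, Gabra4 and Gabrb1 among them. Between 3xTg vehicle and WT vehicle, 0 of 13 were called by edgeR, 2 had an unadjusted p under 0.05 and 5 had groups that did not overlap, against 14.1% and 17.4% of all genes. The smallest unadjusted p was that of Corin, at 0.329 CPM in 3xTg vehicle and 0.812 CPM in WT vehicle, with edgeR adjusted p = 0.308. Next came Slain2, at 15.01 CPM in 3xTg vehicle and 19.5 CPM in WT vehicle (edgeR adjusted p = 0.319), and Kctd8, at 4.58 CPM in 3xTg vehicle and 3.59 CPM in WT vehicle (edgeR adjusted p = 0.359). In 3xTg LP-10d against 3xTg vehicle, 0 of these 13 neighbours had an unadjusted p under 0.05, against 2.9% of all genes, and 1 of 13, Gm38562, had groups that did not overlap, against 11.6%, with its 3xTg LP-10d libraries above those of 3xTg vehicle. Among the genes whose pattern over the 9 libraries was most like that of Gabra2, out of tested genes with a mean of at least 5 CPM, were Rars2 with a root mean square difference of 0.147 in centred log2 CPM, Has3 with 0.156, Ackr1 with 0.157 and Rnf181 with 0.159. None of these 4 lies on chromosome 5, and Gabra4 differed from Gabra2 by 0.229.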

How the data were processed

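Hippocampal RNA of 9 mouse samples was sequenced, and all 9 libraries in 3 groups of 3 were used. The authors deposited raw counts for 55471 genes and, with names and positions, FPKM values for 33175 of them. The FPKM values imply, for all 7 genes, the merged exon lengths of GENCODE M21. Per the submitters' processing notes, reads were placed on mm10. Neither the aligner nor the counter, nor how strand was handled, is given in the sources used here. RNA input was 300 ng with an MGI kit, per the labels' protocols. Of per-sample columns, 0 belonged to other samples.

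Counts were tested with edgeR 4.0.16 in R 4.3.3: filterByExpr (17396 genes), TMM scaling, 1 fit of all 9 libraries by group, and the quasi-likelihood test, with p adjusted by Benjamini-Hochberg and called under 0.05. The common biological coefficient of variation was 0.157. Levels are CPM from TMM-scaled library sizes as mean ± SD, and 95% intervals come from the fit, unadjusted. Groups were called not overlapping when every library of one lay above every library of the other. The method was tested on simulated data. All 7 genes passed the filter. By chi-square, replicates of each group differed by more than sampling noise. The statistic over its degrees of freedom was 48.2 and 51.1 for the pairs with WT vehicle replicate 3, and 4.99 to 21.2 for the other pairs.

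Same-numbered libraries of 3xTg LP-10d and 3xTg vehicle deviated together, with correlations of 0.173, 0.104 and 0.375 for replicates 1 to 3. Differently numbered libraries of these groups ran between -0.298 and 0.18. Same-numbered libraries of either group with WT vehicle ran between -0.178 and 0.16, while WT vehicle replicate 1 with 3xTg LP-10d replicate 3 reached 0.386. A pairing by number is not given by the labels, and these values neither establish nor exclude it.

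The 7 genes, the gene lists and the tests were chosen with earlier results of these data known. Named from each pathway list were members past the threshold, otherwise up to 3 with the smallest unadjusted p; neighbours of Gabra2 followed the same rule within 2 Mb. Not every gene these rules give is reported here. Likeness was ranked for Gabra2 among tested genes of at least 5 CPM. Alternatives were other scalings, filters and tools (DESeq2 1.42.0, limma 3.58.1), FPKM with pseudocounts of 0.1 and 1, a fit of only the groups compared, a replicate block and leaving out libraries.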

Additional observations from a re-analysis of the deposited data

How the results depend on the processing

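None of the 7 genes passed the adjusted threshold in any comparison under any alternative run, and Gabra2 was lower in 3xTg LP-10d than in 3xTg vehicle under all 22, at log2 fold changes of -0.53 to -0.38. Of 609 alternative values, 586 kept their direction and 23 reversed, and the cause of the reversals was not tested. No difference of the 7 genes was called, so none of the reversed ones was. Some alternatives only rescaled the same libraries or left out a library outside the comparison. The values that kept their direction are therefore not independent evidence. The fit with the replicate block called 1 gene between 3xTg vehicle and WT vehicle and 0 in each other comparison, the same counts as without it, and none of the 7 was called with it; at an unadjusted p under 0.05 it had 3 of the 7 between 3xTg vehicle and WT vehicle, against 4 without it. It reversed Gabra4 in 3xTg LP-10d against WT vehicle, at -0.0048, as did RLE scaling (-0.0023), upper-quartile scaling (-0.0016), DESeq2 (-0.0023) and the fit of only the groups compared (-0.0019). With 1 library left out, the log2 fold change of 3xTg vehicle over WT vehicle ran between -0.012 and 0.17 for Gabra4. That of 3xTg LP-10d over 3xTg vehicle ran between -0.19 and 0.041 for Gabra3, -0.16 and 0.013 for Gabra4, and -0.29 and 0.0048 for Gabrb2. That of 3xTg LP-10d over WT vehicle ran between -0.13 and 0.13 for Gabrd, -0.084 and 0.081 for Gabra4, and -0.24 and 0.12 for Gabrb1. For both 3xTg groups over WT vehicle it ran between -0.11 and 0.17 for Gabra2, -0.033 and 0.10 for Gabra4, and -0.33 and 0.030 for Gabrb1. With both 3xTg vehicle replicate 2 and WT vehicle replicate 3 left out, 3xTg LP-10d over 3xTg vehicle gave 0.046 for Gabra3 and 0.018 for Gabra4, 3xTg LP-10d over WT vehicle gave 0.12 for Gabrb1, and both 3xTg groups over WT vehicle gave 0.017 for Gabrb1 and, unreversed, 0.20 for Gabra2.

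Between 3xTg vehicle and WT vehicle edgeR called 1 gene of all tested, while DESeq2 called 352, the fit without a filter 3, limma-trend on log2(FPKM + 0.1) 3 and on log2(FPKM + 1) 2, and leaving out 1 library 0 to 11. Between 3xTg LP-10d and 3xTg vehicle edgeR called 0 and DESeq2 1. Between 3xTg LP-10d and WT vehicle edgeR called 0, DESeq2 46 and leaving out 1 library 0 to 2. For both 3xTg groups against WT vehicle edgeR called 0, DESeq2 315, the fit without a filter 1, log2(FPKM + 1) 1, leaving out 1 library 0 to 4, and leaving out 3xTg vehicle replicate 2 with WT vehicle replicate 3 gave 1. A fit of only the groups compared was not run for that last comparison, which uses all libraries. On the FPKM scales fold changes understate low genes. Each of the 7 had at least 529 counts per library, so counting error was smaller than the spread between replicates.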
